A study of Mus musculus with 6 samples.

Results

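The 9 genes described here are Apoe and genes of the liver X receptor (LXR) pathway of cholesterol efflux. All were chosen by name, with earlier results of these data known. They are the receptors Nr1h2 and Nr1h3, the cholesterol pumps Abca1 and Abcg1, the apolipoprotein genes Apoe and Apoc2, the lipid transfer protein gene Pltp, the ubiquitin ligase gene Mylip and the lipase gene Lpl. Each symbol matched 1 Ensembl ID among the 56748 in the count files, and 8 of the 9 were among the 21849 named genes with at least 50 counts over all libraries. Apoc2, with 4 counts in all, was not tested.

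Transcripts were measured by RNA-seq in bone marrow-derived dendritic cells (BMDCs) from C57BL/6 WT mice and from mice with a global deletion of Nfkb2, which encodes the p100 precursor of the NF-kappaB subunit p52. Each genotype had 3 libraries. The study describes its experiments as biological replicates, and the sources used here do not give which mice each library came from. All cultures were given GM-CSF first and GM-CSF with IL-4 afterwards, no stimulus was added, and polyadenylated RNA was sequenced. The deletion was not restricted to a cell type, so that progenitors and any other cells in the culture carried it as well as the dendritic cells. The age and sex of the donor mice were not given in the sources used here. Bulk RNA from such cultures mixes dendritic cells with other myeloid cells, and fewer cells of a type and less RNA per cell cannot be told apart.

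LXRs are nuclear receptors that bind oxysterols, oxidized forms of cholesterol, and that act on DNA as heterodimers with the retinoid X receptors (RXRs). When a cell holds excess sterol, they raise the genes that pass cholesterol to lipoprotein particles outside the cell, and through Mylip they limit its uptake. The pathway is best known in macrophages, where Apoe and the ABC transporters protect against the build-up of cholesterol esters in foam cells.

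The total counts ranged from 29863927 to 55623068 per library, so that 1 count was worth 0.0187 to 0.0344 CPM, the counts scaled to library size with the TMM method. Nfkb2 itself had 215, 154 and 355 CPM in WT replicates 1, 2 and 3 and 44.8, 32.3 and 32.6 CPM in the Nfkb2-/- replicates, and it fell by 2.72 on the log2 scale (SE 0.33, edgeR adjusted p = 0.0307). Of the 6 libraries, 2 stood apart. In Nfkb2-/- replicate 1, 47952 genes had a count, against 27692 to 33841 in the other libraries, and the library lay alone on the first principal component (45.2% of the variance). In WT replicate 3, 17 of 18 macrophage markers were at their lowest of all 6 libraries. The summed level of the 18 markers was 4830, 5070 and 499 CPM in WT replicates 1, 2 and 3 and 2180, 3050 and 3020 CPM in the Nfkb2-/- replicates. The summed level of 14 dendritic cell markers was highest in that same WT library, with 8670, 6690 and 12100 CPM in WT and 9230, 8890 and 9990 CPM in Nfkb2-/- BMDCs. With Nfkb2-/- replicate 1 left out, edgeR called no gene at all, and Nfkb2 itself then had a log2 fold change of -2.90 with an adjusted p of 0.0876. The count was also 0 without WT replicate 1, Nfkb2-/- replicate 2 or Nfkb2-/- replicate 3, so that no call over all libraries held with any of these 4 left out alone (2325 to 4088 genes at an unadjusted p under 0.05). Values without WT replicate 3 stand beside the genes that it moved.

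Promoters are shown for Apoe, Abca1 and Mylip, the genes of an apolipoprotein, a pump and a ligase. These 3 genes were picked because they were lower in all Nfkb2-/- libraries than in any WT library. RefSeq (GRCm38.p6) gave a promoter for 7 of the 9 genes, in 10 windows, and none was used for Abcg1 and Lpl. Each sequence holds the 250 bases before the start site, and the capitals mark a stretch with 3 mismatches to the DR4 element, the repeat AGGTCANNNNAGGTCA that LXR/RXR heterodimers bind.
Apoe, chr7:19699189-19699438, minus strand: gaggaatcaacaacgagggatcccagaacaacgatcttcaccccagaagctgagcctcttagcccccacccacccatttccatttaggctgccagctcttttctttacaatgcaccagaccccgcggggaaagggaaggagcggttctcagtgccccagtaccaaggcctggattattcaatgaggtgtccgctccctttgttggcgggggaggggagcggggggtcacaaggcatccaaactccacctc
Abca1, chr4:53159896-53160145, minus strand: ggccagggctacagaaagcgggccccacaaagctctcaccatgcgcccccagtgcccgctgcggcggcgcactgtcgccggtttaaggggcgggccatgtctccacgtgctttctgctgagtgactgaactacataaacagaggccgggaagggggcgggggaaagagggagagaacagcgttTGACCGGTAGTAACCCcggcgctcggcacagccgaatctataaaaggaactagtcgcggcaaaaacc
Mylip, chr13:45389492-45389741, plus strand: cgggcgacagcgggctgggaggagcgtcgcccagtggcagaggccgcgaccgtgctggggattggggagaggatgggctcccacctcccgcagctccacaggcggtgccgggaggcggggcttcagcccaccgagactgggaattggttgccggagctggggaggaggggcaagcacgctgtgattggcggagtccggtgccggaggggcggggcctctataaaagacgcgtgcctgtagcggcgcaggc
The Abca1 stretch began 67 bases before the start site and read as a DR4 on the opposite strand. A DR4 with at most 2 mismatches, on either strand, was in none of the 10 windows of 300 bases (250 before and 50 after the start site), and 3.02% of all 32851 RefSeq promoter windows of mouse hold one. With up to 3 mismatches, a limit added after the first search, 21.9% of all windows hold one. The single AGGTCA motif, which is contained in the DR4, occurred only in the Apoc2 window, in 2 places, and it is in 16.3% of all windows. The kappaB consensus was in none of the 10 windows and is in 8.46% of all windows. These matches are descriptions of the windows, and distal elements were not searched.

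None of the 8 tested genes passed the edgeR threshold (adjusted p under 0.05 and a fold change over 1.2), at which 1.14% of all 21849 genes were called in either direction. Of the 8, 4 had an unadjusted p under 0.05 in edgeR, as had 17.1% of all genes. limma voom called none of them, whereas DESeq2 called 4 lower in Nfkb2-/- BMDCs (Apoe, Abca1, Abcg1 and Mylip), with 4.27% of all genes called lower by the same rule. The same 4 genes were lower in every Nfkb2-/- library than in every WT library, a pattern found in 12% of all genes. Lpl was higher without overlap, as were 12.7% of all genes, and the values of Nr1h2, Nr1h3 and Pltp overlapped. The 8 genes had a median log2 fold change of -0.51, against 0.08 over all tested genes. Because the genes were chosen with earlier results of these data known, these counts and shares are descriptions only.

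**Figure D1:**
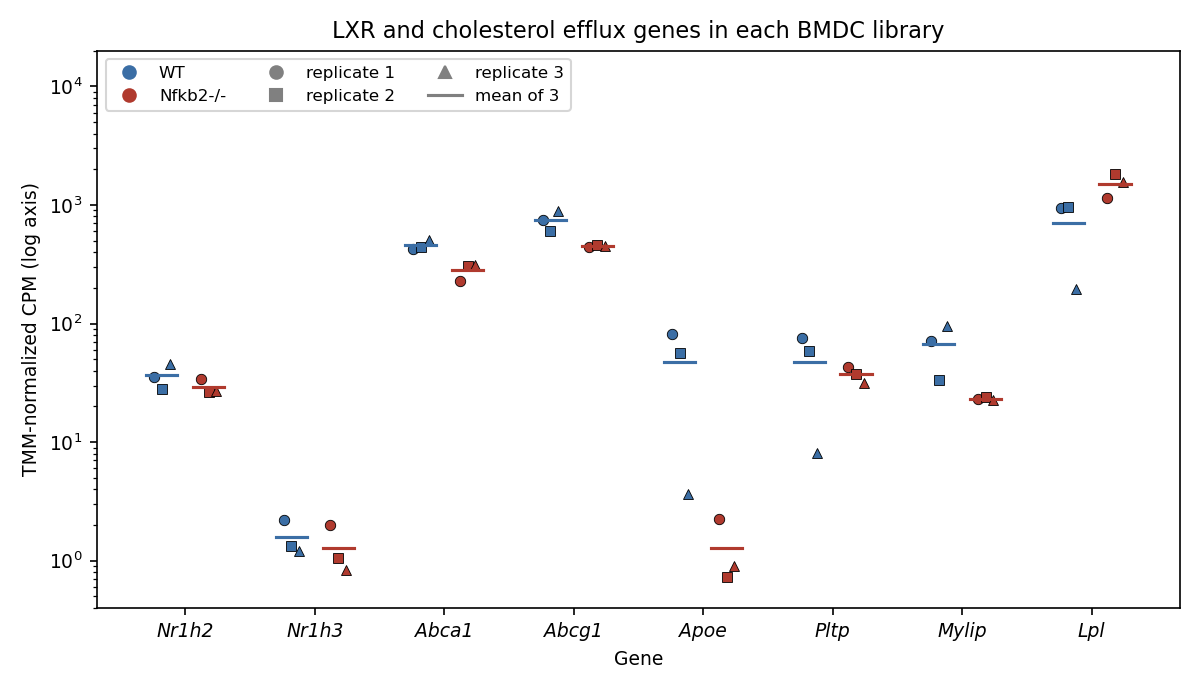
CPM (log axis) of the 8 tested genes, with 1 point per library of 3 WT (blue) and 3 Nfkb2-/- (red) BMDC cultures, the replicate by the shape of the point and the mean of 3 as a line. Apoe was between 3.68 and 82.3 CPM in WT and between 0.725 and 2.25 CPM in Nfkb2-/- BMDCs.

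Both LXR genes overlapped between the genotypes. Nr1h2 (ENSMUSG00000060601, chr7:44549616-44553951, minus strand) encodes LXR beta, the form found in most tissues. It had 35.6, 28.1 and 45.9 CPM in WT replicates 1, 2 and 3, and 34.1, 26.4 and 26.8 CPM in the Nfkb2-/- replicates. The genotypes overlapped, and the log2 fold change was -0.33 (SE 0.22, edgeR adjusted p = 0.491). Nr1h3 (ENSMUSG00000002108, chr2:91184061-91202834, minus strand) encodes LXR alpha, the form enriched in liver, fat and macrophages. It was detected at 2.21, 1.32 and 1.2 CPM in WT and at 1.98, 1.05 and 0.842 CPM in Nfkb2-/- BMDCs, from 32 to 93 counts per library. These values overlapped too, with a log2 fold change of -0.30 (SE 0.46, edgeR adjusted p = 0.778) that became 0.03 without WT replicate 1. Per kilobase of exon, the level of Nr1h2 was 12.1, 15.9 and 28.6 times that of Nr1h3 in WT and 13.0, 18.8 and 23.9 times in Nfkb2-/- BMDCs, so that the beta form was the more abundant LXR transcript in all 6 libraries.

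The pumps Abca1 and Abcg1 were both lower in the Nfkb2-/- libraries by a factor of about 0.6. Abca1 (ENSMUSG00000015243, chr4:53030787-53159895, minus strand) moves cholesterol and phospholipid onto lipid-poor apolipoproteins. Its values were 423, 442 and 504 CPM in WT and 230, 306 and 313 CPM in Nfkb2-/- BMDCs. No Nfkb2-/- library reached the lowest WT library. The means were 457 ± 42.5 and 283 ± 46.0 CPM (SD, n = 3 per genotype), a log2 fold change of -0.69 (SE 0.18, edgeR adjusted p = 0.117, DESeq2 adjusted p = 0.0099). Abcg1 (ENSMUSG00000024030, chr17:31057675-31117988, plus strand) passes cholesterol to mature HDL particles. It had 741, 608 and 895 CPM in WT and 445, 460 and 448 CPM in Nfkb2-/- BMDCs. The Nfkb2-/- libraries differed among themselves by a factor of 1.03, the WT libraries by 1.47, and the genotypes did not overlap. The log2 fold change was -0.73 (SE 0.18, edgeR adjusted p = 0.113, DESeq2 adjusted p = 0.00451), and without WT replicate 2, the lowest WT library, it was -0.86 with an edgeR adjusted p of 0.0394. With any other library left out the adjusted p was between 0.142 and 0.364. Per kilobase, Abcg1 stood at 1.95 to 2.75 times the level of Abca1 in the 6 libraries, with overlapping ratios in WT and Nfkb2-/- BMDCs.

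**Figure D2:**
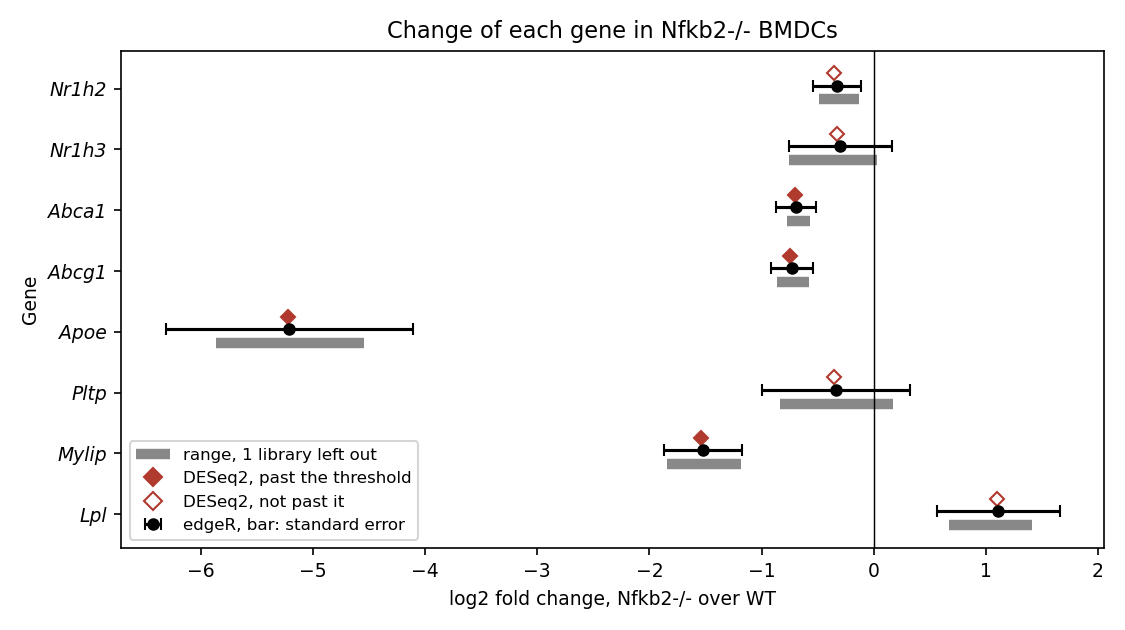
log2 fold change of the 8 tested genes, Nfkb2-/- over WT, with edgeR's estimate and standard error (black), DESeq2's estimate (red, filled where past the threshold) and the range of edgeR's estimates when each library was left out in turn (grey). Apoe lay at -5.21, Mylip at -1.52, the pumps near -0.7 and Lpl at 1.11.

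Apoe showed the largest difference among these genes. Apoe (ENSMUSG00000002985, chr7:19696109-19699188, minus strand) encodes apolipoprotein E, the secreted protein that carries cholesterol away from cells. It was counted 3469, 1836 and 107 times in WT replicates 1, 2 and 3, and 76, 22 and 48 times in the Nfkb2-/- replicates. As levels these were 82.3, 56.5 and 3.68 CPM in WT and 2.25, 0.725 and 0.898 CPM in Nfkb2-/- BMDCs. All 3 Nfkb2-/- libraries were below all 3 WT libraries, but WT replicate 3 lay nearer to the Nfkb2-/- libraries than to the other WT libraries, at 5.31% of their mean. The genotype means were 47.5 ± 40.1 and 1.29 ± 0.832 CPM (SD, n = 3 per genotype). The log2 fold change was -5.21 (SE 1.10), equal to 37.0-fold less, with an adjusted p of 0.077 in edgeR and 0.000163 in DESeq2. Without WT replicate 3 it was -5.76 and passed the edgeR threshold (adjusted p = 0.0172). With Nfkb2-/- replicate 1 left out as well, it was -6.41 (adjusted p = 0.00942). The direction was the same in all 15 alternative fits. The adjusted p was 0.235 in voom and reached 0.285 in edgeR without Nfkb2-/- replicate 2. The lowest, 6.45e-53, came from edgeR with no filter beyond 1 count, where the median log2 fold change of all 46410 genes was 0.60. The next lowest was the DESeq2 value.

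Apoe is abundant in macrophages, and like their markers it was low in WT replicate 3. From WT replicate 1 to 2, however, Apoe went from 82.3 to 56.5 CPM and the marker sum from 4830 to 5070 CPM. Of the 9 genes, Apoe, Pltp and Lpl were at 5.31%, 12.1% and 20.5% of the mean of the other WT libraries in WT replicate 3, and the 17 macrophage markers with enough counts were there at 5.5% (Stab1) to 40.5% (Cx3cr1). The other tested genes were at 68.3% (Nr1h3) to 179% (Mylip). Between genotypes, the macrophage markers depended on that library. Since WT replicate 3 was the lowest of all 6 libraries for all 17 tested markers, none of them could be lower in Nfkb2-/- BMDCs without overlap. Against WT replicates 1 and 2 alone, 12 of the 17 were lower in every Nfkb2-/- library, as were 17.2% of all genes, and so was their summed level. The median log2 fold change of the 17 markers was -0.12 over all libraries and -0.61 without WT replicate 3, where edgeR called Selenop lower (log2 fold change -2.03, adjusted p = 0.0116). Without Lyz2, the most abundant of them, the sums were 1400, 1670 and 233 CPM in WT and 945, 989 and 1150 CPM in Nfkb2-/- BMDCs. Vsig4, a marker of resident macrophages, had at most 3 counts in every library. Per 1000 CPM of the 18 markers, Apoe had 17.0, 11.1 and 7.37 CPM in WT and 1.03, 0.238 and 0.297 CPM in Nfkb2-/- BMDCs, and these ratios did not overlap. Apoe thus had a larger difference than the summed markers with or without WT replicate 3, and how far fewer macrophages or less RNA per macrophage entered into it was not tested.

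**Figure D3:**
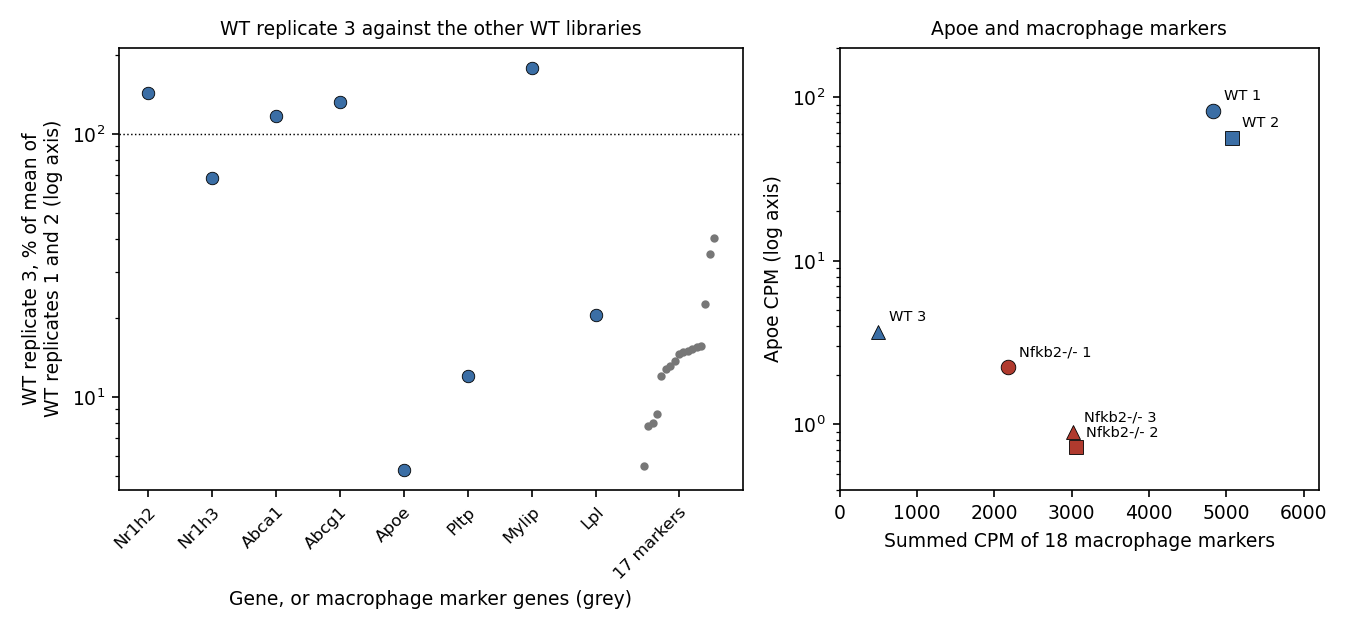
Left, CPM in WT replicate 3 as a percentage of the mean of WT replicates 1 and 2 (log axis), for 8 genes (blue) and 17 macrophage markers (grey). Right, Apoe CPM (log axis) against the summed CPM of 18 macrophage markers in the 6 libraries, where WT replicates 1 and 2 had the highest marker sums (4830 and 5070 CPM) and WT replicate 3 the lowest (499 CPM).

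Markers of other cells were examined beside Apoe as well, and their part in its difference was not tested. Neutrophil markers (9 genes) summed to 169, 243 and 87.0 CPM in WT and 122, 125 and 129 CPM in Nfkb2-/- BMDCs. S100a8 (49.6 to 98.8 CPM) was the largest of them except in WT replicate 1, where it had 53.5 CPM and Ngp 70.7 CPM. Of the 8 tested, DESeq2 called 3 lower, with 4.27% of all genes called lower by the same rule. These were the granule genes Ngp and Ltf and the receptor gene Csf3r, which edgeR called when WT replicate 3 was left out. The other tested markers, called by neither, had log2 fold changes of 0.37 (S100a8), -0.24 (S100a9), -0.02 (Ly6g), -0.07 (Mpo) and -0.78 (Camp). All 8 overlapped between the genotypes. Ngp had 70.7, 80.5 and 18 CPM in WT and 13.8, 21.6 and 13.1 CPM in Nfkb2-/- BMDCs, high like Apoe in WT replicates 1 and 2. Stromal markers (7 genes) summed to 54.7, 14.4 and 1.69 CPM in WT and 27.8, 17.0 and 6.59 CPM in Nfkb2-/- BMDCs. Mast cell and basophil markers (8 genes) summed to between 46.7 and 58.2 CPM in all libraries, mostly from Kit (37.2 to 50.5 CPM), and T and B cell markers (5 genes) between 0.43 and 4.79 CPM. Among the dendritic cell markers, Itgax, which encodes CD11c, rose from 160, 277 and 123 CPM in WT to 745, 769 and 716 CPM in Nfkb2-/- BMDCs (log2 fold change 1.99, edgeR adjusted p = 0.0414). Of the other dendritic cell markers, 3 were higher without overlap, as were 12.7% of all genes. These were Ciita, Dpp4 and Cd86, none of them called by edgeR (adjusted p = 0.254, 0.135 and 0.284). Of these 3, DESeq2 called Dpp4 higher (DESeq2 adjusted p = 0.0259). Zbtb46 was lower without overlap (log2 fold change -0.54, edgeR adjusted p = 0.192), as were 12% of all genes, and 9 markers overlapped. Cpa3, a mast cell protease gene, fell from 10.8, 6.31 and 6.85 CPM to 1.86, 2.34 and 2.49 CPM (log2 fold change -1.84, edgeR adjusted p = 0.0413). In the same list Mcpt8 and Ms4a2 were also lower without overlap, as were 12% of all genes. Gata2 and Hdc were higher without overlap, as were 12.7% of all genes. Counts per library were low, at 0 to 31 for Mcpt8, 6 to 60 for Ms4a2 and 3 to 81 for Hdc. edgeR called none of these genes, and DESeq2 called Gata2 higher (log2 fold change 1.47 in edgeR, DESeq2 adjusted p = 0.0151). Apart from Itgax and Cpa3, the single markers in these sentences were named after their values were seen.

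Apoc2 (ENSMUSG00000002992, chr7:19671579-19677941, minus strand) encodes the cofactor that activates lipoprotein lipase. It had 3 counts in WT replicate 2, 1 count in Nfkb2-/- replicate 1 and none in the other libraries, at or under a floor of 3 counts, so no fold change is given. Of its exonic bases, 79.5% (646 bases) are also annotated to the overlapping gene Gm44805 on the same strand, which had 0 counts in all libraries. Reads that lie in both genes may have been left uncounted, and a difference in Apoc2 was not detectable here.

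Pltp (ENSMUSG00000017754, chr2:164839518-164857711, minus strand) encodes the phospholipid transfer protein that remodels HDL. It had 74.8, 58.5 and 8.09 CPM in WT and 43.1, 37.4 and 31.7 CPM in Nfkb2-/- BMDCs. WT replicate 3 was the lowest of all 6 libraries, and the other WT libraries were above every Nfkb2-/- library. The log2 fold change over all libraries was -0.34 (SE 0.66, edgeR adjusted p = 0.831). It was -0.83 without WT replicate 3 (edgeR adjusted p = 0.102), and -0.97 with Nfkb2-/- replicate 1 left out as well (edgeR adjusted p = 0.0419). Of its exonic bases, 19.3% are shared with Ctsa on the other strand, and reads of the pair cannot be told apart there unless strand was used.

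Mylip (ENSMUSG00000038175, chr13:45389742-45412022, plus strand) encodes IDOL, a ubiquitin ligase that limits lipoprotein uptake. It had 71.9, 33.6 and 94.5 CPM in WT and 23.0, 24.1 and 22.6 CPM in Nfkb2-/- BMDCs. The Nfkb2-/- libraries lay within a factor of 1.06 of each other and below every WT library, of which WT replicate 3 was the highest. The means were 66.7 ± 30.8 and 23.2 ± 0.761 CPM (SD, n = 3 per genotype), a 2.87-fold difference (log2 fold change -1.52, SE 0.35, edgeR adjusted p = 0.0916, DESeq2 adjusted p = 0.00108). Without WT replicate 2, the lowest WT library, the log2 fold change was -1.84 and passed the threshold (edgeR adjusted p = 0.00707), and without WT replicate 3, the highest, it was -1.18 and did not (edgeR adjusted p = 0.13). It was not called with any of the other libraries left out either.

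Lpl (ENSMUSG00000015568, chr8:68880491-68907448, plus strand) encodes lipoprotein lipase, which releases fatty acids from triglyceride-rich particles. It was the only one of the 9 genes that was higher in all Nfkb2-/- libraries. The values were 938, 970 and 195 CPM in WT and 1150, 1820 and 1560 CPM in Nfkb2-/- BMDCs. WT replicate 3 was far below the other WT libraries, and the genotypes did not overlap with or without it. The log2 fold change was 1.11 (SE 0.55, edgeR adjusted p = 0.365) over all libraries and 0.67 (edgeR adjusted p = 0.225) without WT replicate 3, and it was 0.81 (edgeR adjusted p = 0.0352) when Nfkb2-/- replicate 1 was left out too. The ratio of Lpl to Apoe CPM was 11.4, 17.2 and 53.0 in WT and 511, 2520 and 1740 in Nfkb2-/- BMDCs.

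On a scale of mean CPM per kilobase of exon, the WT order was Abcg1 (102), Lpl (66.9), Abca1 (44.1), Apoe (22.2), Mylip (20.6), Pltp (18.4), Nr1h2 (10.9), Nr1h3 (0.627) and Apoc2 (0.0378). Neighbours whose WT libraries did not overlap were Abca1 and Apoe, Nr1h2 and Nr1h3, and Nr1h3 and Apoc2, while all other neighbours overlapped. In Nfkb2-/- BMDCs the order was Lpl (144), Abcg1 (61.8), Abca1 (27.3), Pltp (14.6), Nr1h2 (8.68), Mylip (7.19), Apoe (0.603), Nr1h3 (0.514) and Apoc2 (0.0121). There, Apoe and Nr1h3 were the only neighbours that overlapped.

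Other genes of sterol handling were examined in 7 lists, which hold 97 genes beside the 9, with 83 of them tested. edgeR called 3 of the 83 lower and none higher, against 149 lower and 99 higher of all 21849 genes. DESeq2 called 10 lower and 8 higher, against 933 and 945 of all genes. voom called 3 in each direction, against 243 lower and 245 higher of all genes. Without overlap, 10 were higher and 13 lower, against 12.7% and 12% of all genes, and the median log2 fold change was 0.11. The 3 that fell were Arl4c, Sort1 and Bmp1. Of these genes and the neighbours of Apoe described at the end, 107 in all, 33 had a mean over the 6 libraries below 1 CPM, and 28 of the 33 were highest in Nfkb2-/- replicate 1.

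Among 14 RXR and co-regulator genes, none of the 13 tested passed the threshold. Of the 13, 4 were lower without overlap, against 12% of all genes, and the median log2 fold change was -0.15. The most abundant were Trip12, with 889 to 1230 CPM in WT and 1100 to 1510 CPM in Nfkb2-/- BMDCs, and the corepressor gene Ncor1, with 404 to 480 and 352 to 410 CPM. Rxra, the RXR partner chosen here after its values were seen, had 55.9, 56.9 and 29.6 CPM in WT and 28.5, 29.7 and 33.1 CPM in Nfkb2-/- BMDCs. Its WT replicate 3 lay at the Nfkb2-/- level, and without that library Rxra was called lower (log2 fold change -0.89, edgeR adjusted p = 0.0498).

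Of 17 other LXR targets, 14 were tested. Arl4c, a small GTPase gene and known LXR target, fell from 213, 173 and 211 CPM in WT to 90.0, 101 and 103 CPM in Nfkb2-/- BMDCs (log2 fold change -1.02, SE 0.15, edgeR adjusted p = 0.0413). Without WT replicate 3 it was -0.98 and just missed the threshold (edgeR adjusted p = 0.0508). Of the 14, 5 were higher without overlap, against 12.7% of all genes, and none of these 5 passed the edgeR threshold. Named after their values were seen, except for Scd2, they were the desaturase genes Scd2 and Scd1, the fatty acid synthesis genes Fasn and Acaca, and Lpcat3, a phospholipid remodelling gene. Their values were Scd2 (log2 fold change 1.61, edgeR adjusted p = 0.0916), Fasn (1.2, 0.0777), Scd1 (0.96, 0.0596), Acaca (0.69, 0.153) and Lpcat3 (0.37, 0.386). DESeq2 called the first 4 of these higher, and edgeR called Scd1 when WT replicate 3 was left out (log2 fold change 1.14, adjusted p = 0.0398). Srebf1, the lipogenic regulator that LXRs raise, also picked after its values were seen, overlapped between the genotypes, with 22.0, 27.5 and 19.9 CPM in WT and 32.1, 27.4 and 32.5 CPM in Nfkb2-/- BMDCs (log2 fold change 0.41, edgeR adjusted p = 0.295).

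Of 14 lipoprotein receptor genes, all tested, edgeR called only Sort1 over all libraries. DESeq2 called 3 lower and 1 (Cd36) higher, against 933 and 945 of all 21849 genes. Sort1, which encodes the sorting receptor sortilin, fell from 302, 217 and 234 CPM to 86.4, 97.8 and 86.6 CPM (log2 fold change -1.47, SE 0.17, edgeR adjusted p = 0.0277). Cd36, a scavenger receptor gene, had 301, 305 and 73.9 CPM in WT and 929, 1260 and 1010 CPM in Nfkb2-/- BMDCs. The genotypes did not overlap, and the log2 fold change was 2.23 (edgeR adjusted p = 0.0908, DESeq2 adjusted p = 0.000126). Lrp1, a receptor for apolipoprotein E, had 434, 354 and 85.1 CPM in WT and 147, 168 and 165 CPM in Nfkb2-/- BMDCs, with WT replicate 3 the lowest of all. When that library was left out, edgeR called Cd36 higher (log2 fold change 1.82, adjusted p = 0.0261) and Lrp1 lower (-1.30, 0.0348).

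In the 16 genes of sterol traffic and storage, none was called. The lysosomal sterol carrier gene Npc2 was lower without overlap, with 577, 372 and 531 CPM in WT and 288, 315 and 270 CPM in Nfkb2-/- BMDCs (log2 fold change -0.76, edgeR adjusted p = 0.121), and the acid lipase gene Lipa overlapped. Of 10 oxysterol and sterol synthesis genes, 8 were tested and none called. Their median log2 fold change was 0.96 over all libraries and -0.05 in the 6 that could be tested without Nfkb2-/- replicate 1. Of 12 genes that control LPL protein, 9 were tested and none called, and the most abundant were Sel1l (log2 fold change -0.46, edgeR adjusted p = 0.247) and Furin (0.37, 0.284). Of 14 apolipoprotein and HDL genes, 9 were tested. Bmp1, whose protease trims the precursor of apolipoprotein A-I, fell from 76.1, 46.4 and 109 CPM to 19.8, 11.9 and 11.4 CPM (log2 fold change -2.43, SE 0.37, edgeR adjusted p = 0.0413).

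**Figure D4:**
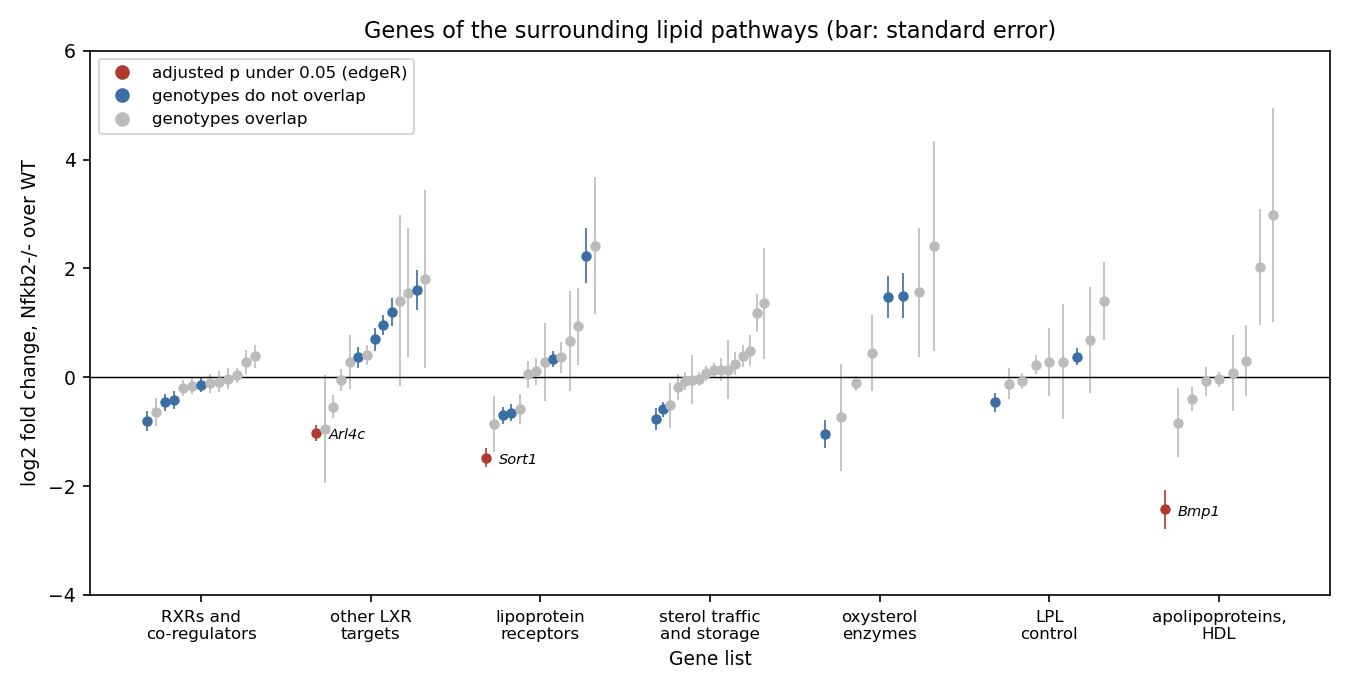
log2 fold change (Nfkb2-/- over WT, edgeR) of each tested gene in 7 of the lists, without the Apoe neighbours, with the standard error as a bar. Points are red past the edgeR threshold, blue where the genotypes did not overlap and grey where they did, and the red points Arl4c, Sort1 and Bmp1 all lie below 0.

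Apoe lies in a gene cluster on chromosome 7 that also holds genes of the NF-kappaB family. The 14 protein-coding genes listed there span 257.8 kb. Beside Apoe and Apoc2, 10 of the other 12 were tested and none was called over all libraries, and their median log2 fold change was -0.06. The nearest tested neighbours were Tomm40, a mitochondrial import gene 16.2 kb away between start sites (9.37, 14.9 and 11.2 CPM in WT, 15.2, 18.6 and 15.5 CPM in Nfkb2-/- BMDCs), and Clptm1 at -34.2 kb, where a minus sign marks lower coordinates. Tomm40 was higher without overlap (log2 fold change 0.48, edgeR adjusted p = 0.317), as were Nectin2 at 51.3 kb (0.90, 0.19) and 12.7% of all genes. Without WT replicate 3, Nectin2 was called higher (log2 fold change 1.31, edgeR adjusted p = 0.0414). Clptm1 had a log2 fold change of -0.11, Clasrp of -0.04, Gemin7 of -0.08, Zfp296 of -0.21 and Bcam of -0.46, and all of these overlapped.

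Relb, whose product pairs with p52, had 201, 119 and 260 CPM in WT and 140, 106 and 119 CPM in Nfkb2-/- BMDCs, which overlapped (log2 fold change -0.67, SE 0.28, edgeR adjusted p = 0.29). Bcl3, which encodes a nuclear partner of p52, had a log2 fold change of 0.07 (edgeR adjusted p = 0.913). Cblc was near the floor, with its highest value of 1.21 CPM in Nfkb2-/- replicate 1. The apolipoprotein genes next to Apoe were not tested for lack of counts. Apoc1 had 12, 4 and 0 counts in WT and 6, 0 and 0 in Nfkb2-/- BMDCs, and Apoc4 had 3, 3 and 0 counts in WT and 31, 0 and 0 in Nfkb2-/- BMDCs.

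**Figure D5:**
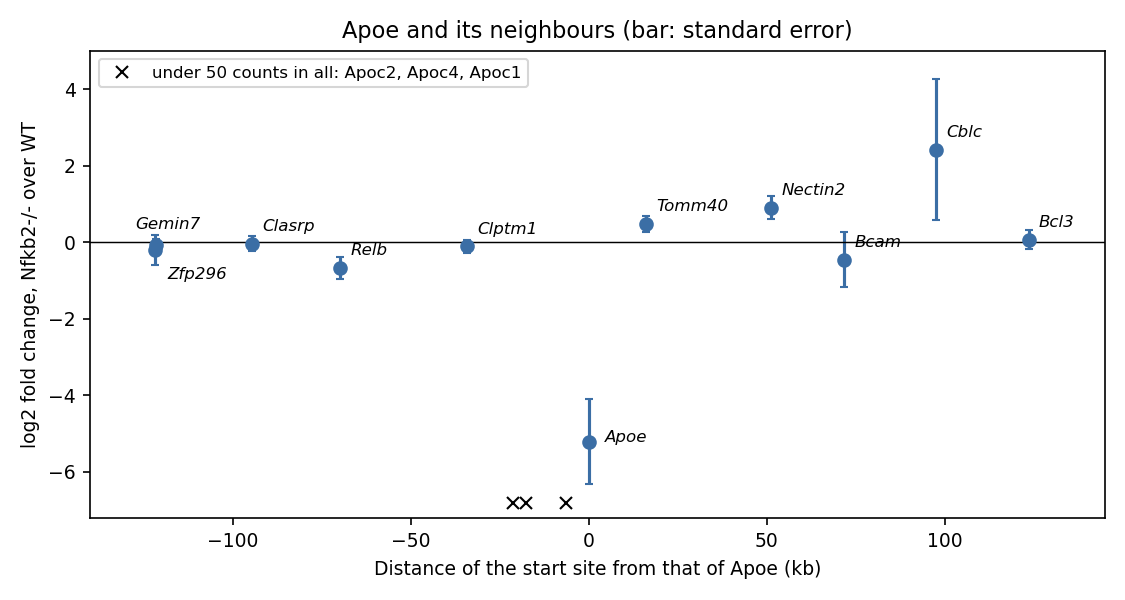
log2 fold change (Nfkb2-/- over WT, edgeR, bars: standard error) of the tested genes around Apoe against the distance of their start sites from that of Apoe in kb, with crosses at the places of Apoc2, Apoc4 and Apoc1, which were not tested. Apoe lay at -5.21, and its tested neighbours other than Cblc (2.42) lay between -0.67 and 0.90.

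The genes whose log2 CPM followed Apoe most closely over the 6 libraries, among the 10645 whose mean reached 5 CPM, were Cdc26 (Pearson's r = 0.998), C77080 (0.99), Hs1bp3 (0.98), Stx17 (0.979) and Fam234a (0.977). These correlations describe 6 libraries of 2 genotypes, which also differed in depth. The ranges were far narrower than that of Apoe. Cdc26 had 14.8, 14.7 and 12.9 CPM in WT and 12.6, 12.2 and 12.1 CPM in Nfkb2-/- BMDCs, and C77080 had 16.1, 11.6 and 5.85 CPM in WT and 5.70, 4.05 and 4.19 CPM in Nfkb2-/- BMDCs.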

How the data were processed

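RNA-seq libraries of unstimulated BMDCs were analysed, 3 WT and 3 Nfkb2-/-, grouped by the sample labels. The authors deposited raw read counts per Ensembl gene for each library. The submitters' processing notes name HISAT2 and the GRCm38 (mm10) genome, without versions. The counting tool, the annotation release and the use of strand were not given in the sources used here. Genes with at least 50 counts in sum and a name in GENCODE M21 (GRCm38) were kept, 21849 of 56748 IDs. IDs without a name held 1.01% to 1.75% of the counts of a library and stayed out of library sizes and tests. Gene positions, overlaps and exonic lengths are from GENCODE M21.

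Counts were scaled with TMM and the genotypes compared with the quasi-likelihood test of edgeR 4.0.16 (glmQLFit and glmQLFTest, no covariates) in R 4.3.3, with Benjamini-Hochberg adjustment over all tested genes. Genes were called at a fold change over 1.2 with an adjusted p below 0.05. Standard errors (SE) of log2 fold changes were derived from the F statistic, as the estimate over its root. The common dispersion was 0.219. The scripts were tested on simulated counts. The alternatives were DESeq2 1.42.0, limma 3.58.1 (voom), RLE size factors, total counts without TMM, other filters, the replicate number as a block and each library left out. A fit of 2 against 2 libraries, without WT replicate 3 and Nfkb2-/- replicate 1, was chosen after seeing the data, as were the counts and medians of lists without either library. A floor of 3 counts corresponded to 0.0561 to 0.103 CPM, depending on the library.

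The 9 genes and the lists were chosen with earlier results of these data known, and the lists were written by hand. Named are the 9 genes, the Apoe neighbours, Nfkb2, the 5 genes that follow Apoe most closely, and from every other list the genes called by edgeR and the 2 with the highest mean CPM. Others are said to be chosen after their values were seen. A joined table with the same values was not used. A few genes of the lists are not reported here by name.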

Additional observations from a re-analysis of the deposited data

How the results depend on the processing

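The direction of Apoe, Abca1, Abcg1, Mylip, Nr1h2 and Lpl was the same in all 15 alternative fits. The estimate for Pltp was 0.14 under voom and 0.11 with the replicate block, and ranged from -0.83 to 0.17 with 1 library left out, and that for Nr1h3 ranged from -0.758 to 0.031. Of the 9 genes, none were called, 4 by DESeq2, 2 with no filter beyond 1 count, 4 in the fit of 2 against 2 libraries and 0 to 2 with 1 library left out (2 without WT replicate 2, 1 without WT replicate 3). Of the related genes, Apoe neighbours included, 3 were called, 18 by DESeq2, 6 by voom, 11 with no filter, 15 with 2 against 2 libraries, 0 with the replicate block and 0 to 12 with 1 library left out (0 without WT replicate 1 or any of the Nfkb2-/- replicates). Over all genes, edgeR called 248, DESeq2 1878, voom 488, filterByExpr 397, no filter 1625, at least 10 counts in every library 459, 2 against 2 libraries 908 and the replicate block 0 (3331 at an unadjusted p under 0.05), and 0 to 1248 were called with 1 library left out. The causes of these differences were not tested. Without a filter the median log2 fold change of all genes was 0.60, against 0.08, and without TMM it was 0.17. Replicate numbers were not taken as pairs. The deviations of same-numbered libraries correlated at 0.262, 0.148 and 0.0224, and WT replicate 2 correlated best with Nfkb2-/- replicate 3 (0.164). Apoc2 and the small apolipoprotein genes beside Apoe were below the depth needed for a test.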
